A study of Mus musculus with 6 samples.

Results

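The TRIM (tripartite motif) genes were taken as the protein-coding rows of the deposited count table whose symbol is Trim followed by a digit, leaving out Trim25. This gave 54 genes of the 23842 in the table, 15932 of which are protein-coding. The table holds 2 further rows with such a symbol, Trim30c, whose type is given as unknown, and a Trim30 pseudogene, and neither is a member. The cells were fibroblasts cultured from C57BL/6 mouse embryos, kept in high-glucose medium with serum and given no treatment. Total RNA was sequenced from 3 libraries labelled NGLY1-/- and from 3 libraries labelled WT, and the question was which genes change when NGLY1, the cytosolic enzyme that strips N-linked glycans from misfolded glycoproteins, is missing. Whether the 3 libraries of a genotype stem from different embryos is not told by the labels, so the p-values rest on a spread among libraries that may be technical only.

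TRIM proteins carry a RING domain that transfers ubiquitin, followed by B-box domains and a coiled coil, and their carboxy-terminal domains set what they bind. A large part of the family is induced by interferon: secreted interferon acts through its receptor, receptor-bound kinases and transcription factors that include Irf9, which bind a promoter sequence called the interferon-stimulated response element. The interferon-linked proteins bind viral capsids or antibody-coated particles in the cytosol, or raise and restrain the signalling of pathogen sensors. Others act on chromatin, on microtubules, in muscle or in the translation and decay of messenger RNA. Of the 54 members, 14 were listed as interferon-linked, from general knowledge of the family and with earlier results of these data known.

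The response element was the motif searched in the promoters, and its matches are shown first. A window of 250 bases before to 50 bases after the annotated start was found for 43 of the 54 members (56 windows, RefSeq, GRCm38.p6) and was searched on both strands for GAAA, any 2 bases, then GAAA. The match stood in 8 of the 13 interferon-linked members with a window (61.5%) and in 1 of the 30 other members (3.33%), against 1079 of 27025 genes in all (3.99%). With a longer motif, in which C and any base follow, the counts were 6 of 13, 1 of 30 and 0.944% of all genes. The matches are given below on the strand that reads GAAA, in capitals, with 10 bases on each side; where overlapping matches follow each other, all are in capitals.
Trim30a: caggaactgaGAAAAAGAAActaaagaact
Trim30d: caggaactgaGAAAAAGAAActaaagaact
Trim34a: gcagagaaaaGAAACTGAAActccaaacca
Trim12a: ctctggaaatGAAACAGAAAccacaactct
Trim12c: agctggaaatGAAACAGAAAccacaactct
Trim5: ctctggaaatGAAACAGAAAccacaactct
Trim21: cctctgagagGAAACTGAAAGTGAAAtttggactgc
Trim26: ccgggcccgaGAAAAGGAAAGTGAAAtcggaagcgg
Trim2: ctgtcttagaGAAAAGGAAAccaaagctga
The windows were chr7:104465144-104465443 for Trim30a, chr7:104507800-104508099 for Trim30d, chr7:104315446-104315745 for Trim12a, chr7:104353300-104353599 for Trim12c, chr7:104288057-104288356 for Trim5, chr7:102565433-102565732 for Trim21 and chr3:84212789-84213088 for Trim2, with these genes on the minus strand. They were chr7:104244207-104244506 for Trim34a and chr17:36836896-36837195 for Trim26, with these genes on the plus strand. Trim30a and Trim30d printed the same 30 letters, as did Trim12a and Trim5, and Trim21 and Trim26 each held overlapping matches. Related neighbouring genes are counted singly in the shares above, so their matches are not independent of each other. Trim14, listed as interferon-linked, had no window. A second Trim30a window, at chr7:104446076-104446375, also held the match. The other windows of Trim2, such as chr3:84304726-84305025, held none. A match is a description of these letters and does not show that a factor binds there.

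Whole windows are shown for Trim30a and Trim34a, among the members that rose most, and for Trim6, the gene next to Trim34a, which did not pass the test. The sequences run along the gene's strand, and the capitals mark the match, which for both genes lies on the opposite strand. It began 36 bases before the annotated start of Trim30a and 10 bases after that of Trim34a. The Trim6 window, chr7:104218545-104218844 on the plus strand, held no match.
Trim30a: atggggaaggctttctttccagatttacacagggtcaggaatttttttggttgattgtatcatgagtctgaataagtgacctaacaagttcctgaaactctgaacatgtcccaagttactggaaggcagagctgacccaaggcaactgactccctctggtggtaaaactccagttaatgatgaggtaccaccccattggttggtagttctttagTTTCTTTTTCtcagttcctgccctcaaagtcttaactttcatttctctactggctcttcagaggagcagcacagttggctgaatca
Trim34a: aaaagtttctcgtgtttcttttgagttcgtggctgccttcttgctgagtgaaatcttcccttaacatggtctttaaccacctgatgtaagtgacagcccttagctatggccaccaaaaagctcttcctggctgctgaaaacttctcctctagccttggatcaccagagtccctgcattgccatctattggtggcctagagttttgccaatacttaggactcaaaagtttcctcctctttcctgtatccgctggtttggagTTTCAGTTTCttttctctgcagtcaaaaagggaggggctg
Trim6: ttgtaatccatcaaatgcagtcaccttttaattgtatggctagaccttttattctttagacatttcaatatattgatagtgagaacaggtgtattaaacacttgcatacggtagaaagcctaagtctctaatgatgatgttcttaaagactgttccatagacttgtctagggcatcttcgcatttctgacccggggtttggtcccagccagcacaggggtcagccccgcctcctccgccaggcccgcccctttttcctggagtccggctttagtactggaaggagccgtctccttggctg

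The libraries held 33007239 to 37841558 counts in the NGLY1-/- group and 27323577 to 37790710 in the WT group, where replicate 3 was the shallowest. Ngly1 itself had 618, 420 and 457 counts in the NGLY1-/- libraries and 668, 632 and 307 in the WT libraries, so the genotype could not be checked from its count and all directions given here rest on the labels. The groups are called knockout-labelled and wild-type here. The share of ribosomal RNA genes was 0.208%, 0.835% and 3.73% in the knockout-labelled libraries and 1.45%, 1.72% and 2.82% in the wild-type libraries. Of 10 fibroblast markers 9 could be tested, of which 6 fell, 1 rose and 2 (Col1a1 and Col3a1) did not pass. So 77.8% were called at a false discovery rate of 0.05, 66.7% lower and 11.1% higher. Of all tested genes 60.9% were called, 30.2% lower and 30.7% higher, which is also the background of the other marker calls below. The intermediate filament gene Vim stood at 652 to 726 CPM (counts scaled to the size of each library) in the knockout-labelled libraries and at 1517 to 1978 CPM in the wild-type libraries. S100a4 fell 7.59-fold, Thy1 3.11-fold and Pdgfra 1.96-fold, Dcn rose 4.60-fold, and Lum was near 0 in both groups. The Pdgfra call was lost with no filter on low counts (adjusted p = 0.117). Of 11 leukocyte markers 7 were in the table, with a summed level of 8.96 to 10.3 CPM in the knockout-labelled libraries and 5.34 to 8.45 CPM in the wild-type libraries. The pan-leukocyte gene Ptprc was at 0 in the 3 knockout-labelled libraries and had counts of 3, 0 and 0 in the wild-type libraries. The macrophage gene Lyz2 was at 0 in 5 of the 6 libraries. Csf1r had counts of 1, 2 and 4 in the knockout-labelled libraries and of 11, 7 and 4 in the wild-type libraries. Fcer1g had 5, 11 and 8, against 2, 4 and 5, and Itgam had 0, 0 and 3, against 1, 4 and 2. Cd14 and Cd68 made up most of the sum: the monocyte gene Cd14 rose 1.61-fold, with 6.34 to 7.36 CPM in the knockout-labelled libraries and 3.15 to 4.96 CPM in the wild-type libraries, a call lost without knockout-labelled replicate 3 (adjusted p = 0.0501), and Cd68 did not pass. Of 8 muscle markers 5 were in the table, and these summed to 4.06 to 4.45 CPM in the knockout-labelled libraries and 0.822 to 1.46 CPM in the wild-type libraries, carried by desmin (Des) and, in the wild type, also by Acta1. Of 5 neural markers, Tubb3 and Sox2 rose, with log2 fold changes of 1.48 and 2.95, Nes (0.18) and Map2 (-0.24) did not pass, and Gfap was near 0. Of the epithelial markers Krt8 fell 22.6-fold and Cdh1 2.84-fold, the Cdh1 call being lost without knockout-labelled replicate 2 (adjusted p = 0.0525), and Krt18 did not pass. Epcam, too low to be tested, had counts of 1, 5 and 5 in the knockout-labelled libraries and of 2, 0 and 0 in the wild-type libraries. Of the endothelial markers Kdr rose 1.93-fold and Tek did not pass, and the Kdr call was lost without knockout-labelled replicate 3 or wild-type replicate 1 or 2 (adjusted p = 0.050, 0.0551 and 0.0506). Pecam1 and Cdh5 were too low to be tested. Pecam1 had counts of 1, 1 and 0 in the knockout-labelled libraries and of 15, 7 and 5 in the wild-type libraries. Cdh5 had 1, 2 and 3 in the knockout-labelled libraries and 0, 8 and 9 in the wild-type libraries. The part of these markers in the changes of the TRIM genes was not tested.

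The TRIM family was mostly higher in the knockout-labelled libraries. Of the 41 members with enough counts to be tested, 24 rose, 5 fell and 12 did not pass a false discovery rate of 0.05. Of all 15039 genes tested, 60.9% were called, 30.7% higher and 30.2% lower, so the members' 70.7% called is read against a background in which most genes differ. The median log2 fold change (knockout-labelled over wild-type) was 0.57 over the tested members and -0.04 over all tested genes. A rise of at least 2-fold was found for 14 members, where 13.6% of all tested genes rose that much, and a fall of at least 2-fold for 3 members, against 14.9% of all. The libraries of the groups did not overlap for 34 of the 41 members and for 67.3% of all tested genes. In bulk RNA, fewer cells of a type and less RNA per cell cannot be told apart.

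**Figure D1:**
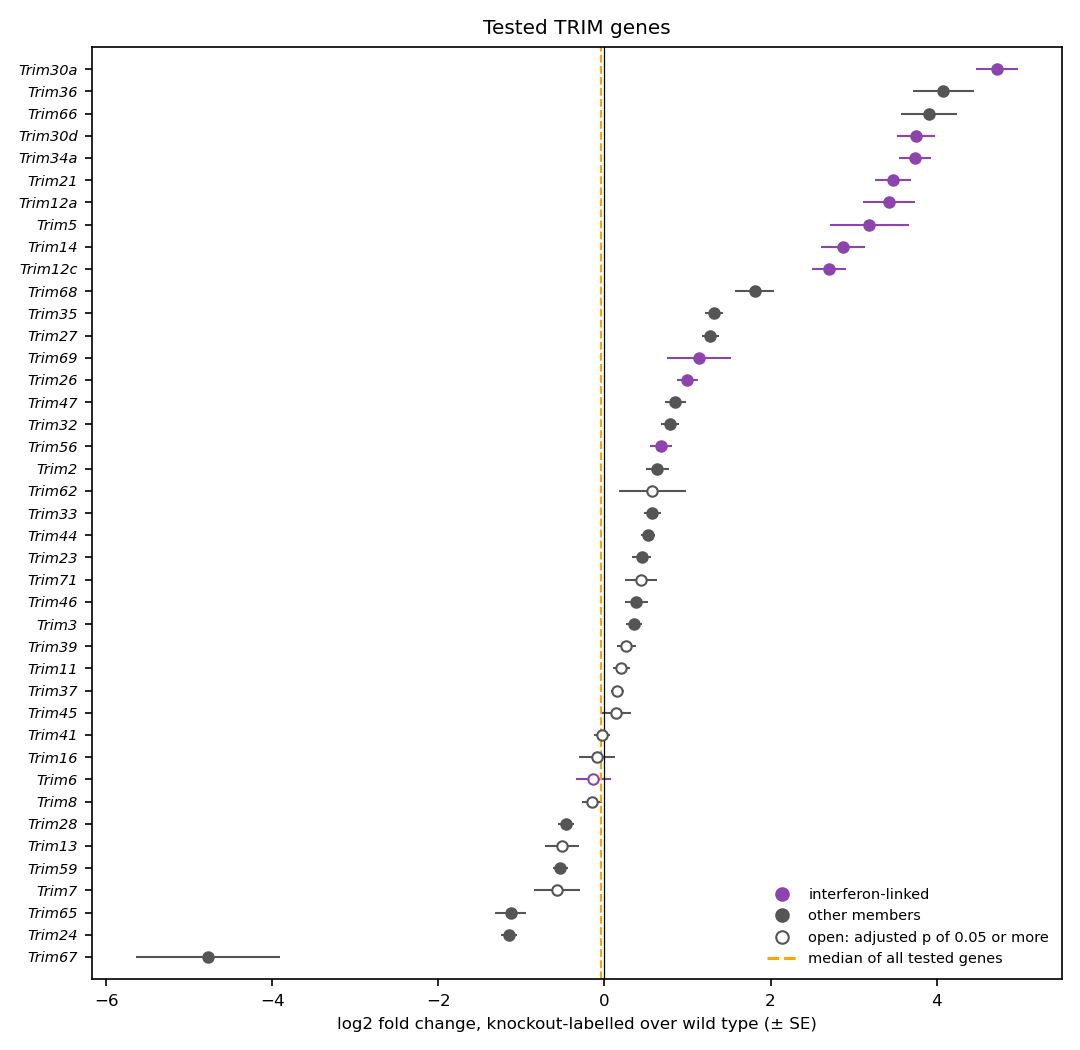
Log2 fold change of each of the 41 tested TRIM genes, knockout-labelled over wild-type, with its standard error from the fit; purple points are interferon-linked members, grey points other members, open points did not pass the test, and the dashed line is the median of all tested genes (-0.04). Trim30a is at the top with 4.73 and Trim67 at the bottom with -4.77, a fitted value that depends on the prior count since its knockout-labelled libraries held 1 count.

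Most of the interferon-linked members rose. Of the 12 interferon-linked members tested, 11 rose, 0 fell and 1 did not pass, with a median log2 fold change of 3.03, and 9 of them rose at least 2-fold. Of the 29 other members tested, 13 rose, 5 fell and 11 did not pass, with a median of 0.36. In either direction 62.1% of them were called, close to the 60.9% of all genes. By direction 44.8% were higher and 17.2% lower, against 30.7% and 30.2% of all tested genes. Summed over the 14 interferon-linked members, the level was 473 to 529 CPM in the knockout-labelled libraries and 99.9 to 125 CPM in the wild-type libraries, a ratio of 4.33 between the means. Since the list was drawn up with results of these data known, these counts and medians are descriptions.

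Trim30a, an interferon-induced gene whose mouse product restrains Toll-like receptor signalling to NF-kB, was the interferon-linked member with the highest level in the knockout-labelled libraries. It had 189, 158 and 154 CPM there, against 8.60, 6.09 and 3.99 CPM in the wild-type libraries. The groups were far apart, and the log2 fold change was 4.73 ± 0.25 (SE; adjusted p = 9.39e-07), a rise of 26.5-fold. Its gene covers chr7:104409025-104465193. Its neighbour and close relative Trim30d had 31.7, 24.3 and 26.9 CPM in the knockout-labelled libraries and 2.63, 2.11 and 1.28 CPM in the wild-type libraries, a log2 fold change of 3.76 ± 0.23 (adjusted p = 8.7e-07). The transcripts of this pair share little at read length: 6.53% of the 50-base stretches of the longest Trim30a transcript also occur in Trim30d. Gm16464, a gene that lies within Trim30d on the same strand, rose with it (log2 fold change 3.08), and the counting of reads in their overlap is not given in the sources used here. Trim30c, no member by its gene type, had counts of 15, 7 and 22 in the knockout-labelled and 1, 0 and 1 in the wild-type libraries, 23.0 times as many after TMM scaling of the libraries (95% exact counting interval 6.01 to 196).

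Trim34a, the mouse relative of a human capsid-binding protein, and Trim21, the cytosolic receptor for antibody-bound particles, both rose more than 10-fold. Trim34a had 34.5, 28.6 and 29.6 CPM in the knockout-labelled libraries against 2.53, 2.70 and 1.61 CPM in the wild-type libraries, 13.3-fold higher (log2 fold change 3.74 ± 0.19, adjusted p = 2.05e-07). Trim21 had 41.3, 30.0 and 31.3 CPM in the knockout-labelled libraries against 3.76, 3.26 and 2.09 CPM in the wild-type libraries, 11.1-fold higher (3.47 ± 0.22, adjusted p = 1.12e-06). No library of one group reached the range of the other for either gene. Trim34b, a copy in which 59% of the 50-base stretches also occur in Trim34a, had counts of 1, 0 and 0 in the knockout-labelled libraries and of 5, 0 and 1 in the wild-type libraries, and was not tested. Of the stretches of Trim34a, 41.3% occur in Trim34b, so the split of reads between this pair is uncertain.

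The mouse genes related to the primate retroviral restriction factor TRIM5 moved in the same direction. Trim12a had 21.7, 19.5 and 19.4 CPM in the knockout-labelled libraries and 2.65, 2.0 and 0.805 CPM in the wild-type libraries (log2 fold change 3.43 ± 0.32, adjusted p = 2.32e-05). Trim12c, whose mouse product is known to promote type I interferon and NF-kB signalling, had 50.4, 50.7 and 50.5 CPM in the knockout-labelled libraries, nearly the same level in each, and 9.0, 9.17 and 4.94 CPM in the wild-type libraries (2.70 ± 0.21, adjusted p = 5e-06). Trim5 was much lower, with counts of 26, 36 and 28 in the knockout-labelled libraries and of 5, 2 and 3 in the wild-type libraries (3.19 ± 0.48, adjusted p = 0.000258). The values of Trim5 and Trim12c are uncertain, because 38.1% and 33.7% of the 50-base stretches of their transcripts also occur in other genes, most of them in each other.

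Away from chromosome 7, the called interferon-linked members had log2 fold changes of 0.68 to 1.14, apart from Trim14 at 2.87. Trim14, which lacks a RING domain and is known from human cells as a mitochondrial partner of the RNA-sensing adaptor MAVS, had 7.31, 7.19 and 6.60 CPM in the knockout-labelled libraries and 1.11, 1.13 and 0.585 CPM in the wild-type libraries (log2 fold change 2.87 ± 0.26, adjusted p = 1e-05). Nans, which overlaps Trim14 on the opposite strand at 72.7 CPM on average in the knockout-labelled and 78.4 CPM in the wild-type libraries, did not pass (log2 fold change -0.11). Trim26, a ligase described as acting on the transcription factor IRF3 in the nucleus, had 71.3, 86.8 and 101 CPM in the knockout-labelled libraries against 41.9, 43.4 and 44.1 CPM in the wild-type libraries, a log2 fold change of 1.0 ± 0.12 (adjusted p = 7.76e-05). Trim56, which takes part in cytosolic DNA sensing through cGAS and STING, had 77.2, 63.1 and 74.1 CPM in the knockout-labelled libraries and 49.0, 48.0 and 36.8 CPM in the wild-type libraries (0.68 ± 0.13, adjusted p = 0.00124). Per kb of the longest annotated transcript, the mean wild-type levels were 9.94 CPM for Trim26 and 4.81 CPM for Trim56. Trim69, whose human product binds microtubules and restricts vesicular stomatitis virus, stayed low, with counts of 49, 24 and 44 in the knockout-labelled libraries and of 24, 16 and 15 in the wild-type libraries. Its log2 fold change of 1.14 ± 0.38 had an adjusted p of 0.0257, and the call was lost without knockout-labelled replicate 1 or 3 or wild-type replicate 2 (adjusted p = 0.0990, 0.0744 and 0.0845). The 119 other tested genes within 5 Mb of Trim69 had a median log2 fold change of 0.77.

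Trim6, which in human cells builds free ubiquitin chains that activate an interferon-signalling kinase, was the tested interferon-linked member that did not pass. It had 2.68, 3.29 and 2.82 CPM in the knockout-labelled libraries and 3.37, 3.26 and 3.00 CPM in the wild-type libraries, with overlapping groups and a log2 fold change of -0.13 ± 0.21 (adjusted p = 0.601). Its adjusted p ranged from 0.368 to 0.844 over 14 alternatives. Trim38, a regulator of pathogen sensor signalling, had counts of 0 in the knockout-labelled libraries and 1 count over the wild-type libraries, so no change could be seen at this depth.

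**Figure D2:**
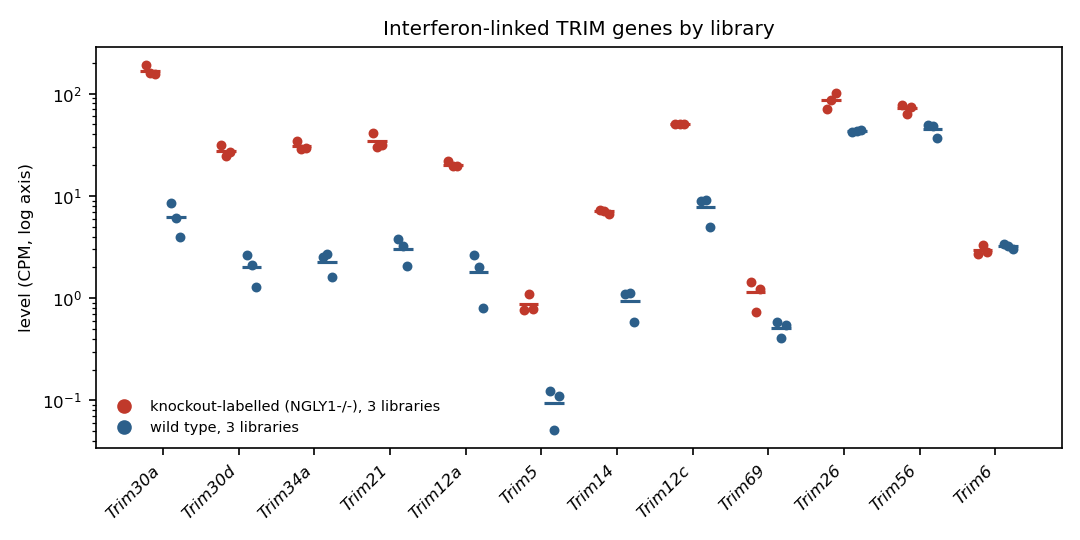
Level of the 12 tested interferon-linked TRIM genes in each library, in CPM on a log axis, ordered by fold change; points are libraries and bars group means. The groups are apart for 11 of the 12 genes, and Trim6, at the right, overlaps.

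Of the wild-type libraries, replicate 3 was lowest for most interferon-linked members: this held for 9 of the 12 tested, against 48.3% of the other tested members and 42.5% of all tested genes. Trim12a was at 0.346 times the mean of wild-type replicates 1 and 2 there, Trim14 at 0.524 times, Trim30a at 0.543 times and Trim12c at 0.544 times. Trim26, Trim69 and Trim5 were not lower in that library, with ratios of 1.03, 1.1 and 1.26. The interferon signalling gene Irf7 was at 0.732 CPM in wild-type replicate 3, against 2.33 CPM in replicate 1. The coefficient of variation was larger among the wild-type libraries for 9 of the 12 tested members and larger among the knockout-labelled libraries for Trim26, Trim69 and Trim6. For Trim30a it was 11.5% in the knockout-labelled libraries and 37.1% in the wild-type libraries, and for Trim69 it was 32.3% in the knockout-labelled and 18.1% in the wild-type group. With wild-type replicate 3 left out, the median log2 fold change of the interferon-linked members was 2.89, with 11 higher and 0 lower.

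By position, chromosome 7 carries 14 of the 54 members, and 10 of them lie between Trim21 and Trim30d, at chr7:102557920-104507853. Of the 9 tested there, 8 rose, 0 fell and 1, Trim6, did not pass, with a median log2 fold change of 3.43. Trim68, the member of this stretch that was not listed as interferon-linked and is known in human cells as a coactivator of the androgen receptor, lies between Trim21 and the Trim5 to Trim30d cluster. It had 9.38, 9.39 and 10.5 CPM in the knockout-labelled libraries and 3.81, 2.57 and 1.90 CPM in the wild-type libraries (log2 fold change 1.81 ± 0.24, adjusted p = 0.000116). Only 2 other tested genes have their whole range in the stretch, Gm16464, described above, and the pseudogene Dnajc19-ps, which did not pass (log2 fold change -0.47). The 1022 other tested genes of chromosome 7 had a median of 0.15, with 372 higher (36.4%) and 220 lower (21.5%). Over all tested genes 30.7% were higher and 30.2% lower. From 5 Mb before to 8 Mb after the lowest coordinate of Trim21, 113 genes that are no members were tested, with a median of 0.11, 39 higher and 21 lower. Of these, 10 passed with a log2 fold change over 2.5. The share of all tested genes past that size was not worked out, so this count has no background. Wnt11, Dgat2 and P2ry2 lay before Trim21. Gm16464, Usp17la, Gm4070, Gm17757, Gvin1, Gm18853 and Gm8995 lay 1.94 to 3.94 Mb after its lowest coordinate. Trim3, at 3.05 Mb and so among the latter genes, rose by 0.36 on the log2 scale.

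**Figure D3:**
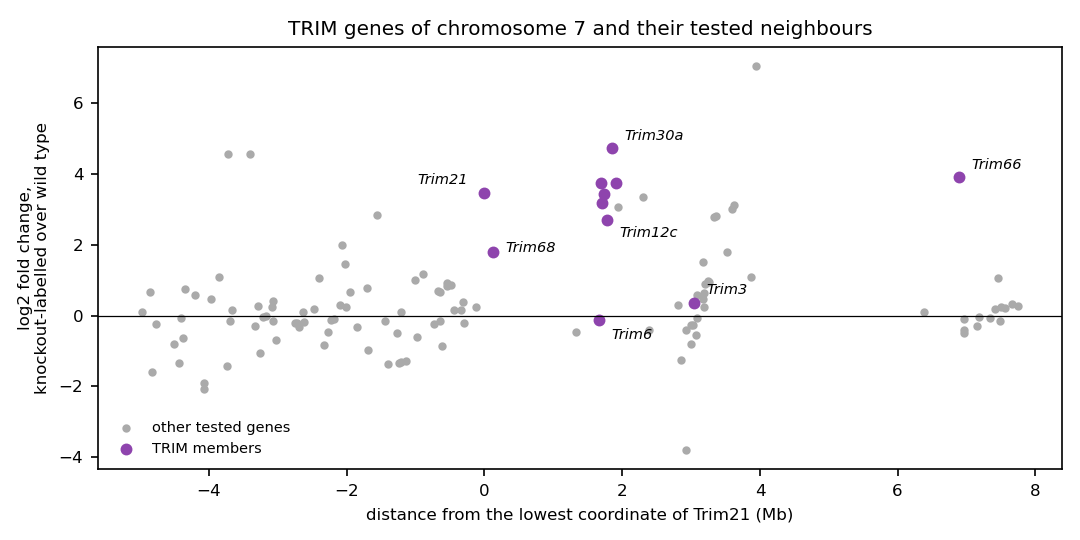
Log2 fold change of the tested genes of chromosome 7 from 5 Mb before to 8 Mb after the lowest coordinate of Trim21, against distance in Mb; purple points are TRIM members and grey points other genes. Members between Trim21 and Trim30d stand at 1.81 or above except Trim6 at -0.13, while the other genes centre on 0.11.

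The promoter match and the change can be read side by side. All 9 tested members with a match in a window rose, with a median log2 fold change of 3.43, and 7 of them rose at least 2-fold. The others were Trim26, just under 2-fold, and Trim2, outside the interferon-linked list, at 1.56-fold. For Trim2 the match stood in a single window, and its other windows held none. Of the 23 tested members with a window and no match, 10 rose and 4 fell. Among the tested interferon-linked members with a window and no match, Trim56 and Trim69 rose and Trim6 did not pass. Over all tested genes with a window, 193 of 398 with the match rose (48.5%), against 3341 of 10460 without it (31.9%). With the longer motif, 72 of 115 rose (62.6%).

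The interferon-linked members took a larger share of the family's level in the knockout-labelled libraries. To compare genes, CPM was divided by the length of the longest annotated transcript in kb. On that scale they held 23.1%, 22.2% and 22.8% of the summed level of the 54 members in the knockout-labelled libraries and 6.64%, 6.32% and 5.12% in the wild-type libraries. The summed level itself was 562 ± 24.9 CPM per kb in the knockout-labelled libraries and 383 ± 4.27 CPM per kb in the wild-type libraries (SD, n = 3 each). Over all 6 libraries the highest levels were those of Trim28 (63.5 CPM per kb), Trim35 (56.2) and Trim59 (36.1), and the lowest among tested members those of Trim67 (0.0211), Trim5 (0.134) and Trim62 (0.174). The order differed between the groups: in the knockout-labelled libraries Trim35 (80.2), Trim28 (53.3) and Trim30a (44.3) were highest, and in the wild-type libraries Trim28 (73.7), Trim59 (42.7) and Trim35 (32.1). The lowest were Trim67 (0.00116), Trim62 (0.208) and Trim5 (0.242) in the knockout-labelled libraries and Trim5 (0.0259), Trim66 (0.0309) and Trim67 (0.0410) in the wild-type libraries.

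**Figure D4:**
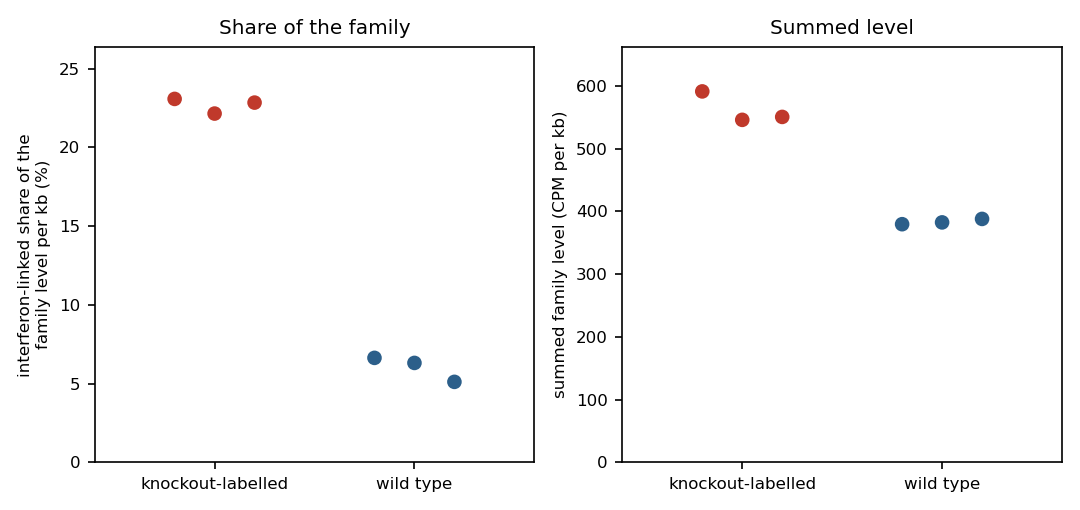
Left, share of the summed TRIM level per kb held by the 14 interferon-linked members in each library, in percent; right, the summed level of the 54 members in CPM per kb. Knockout-labelled libraries lie at 22.2% to 23.1% and wild-type libraries at 5.12% to 6.64%.

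The chromatin members of the TIF1 type pair the tripartite motif with a PHD finger and a bromodomain. Of these, 2 of 4 rose and 2 fell, where 30.7% of all tested genes were higher and 30.2% lower. Trim24, a coregulator of nuclear receptors, fell to 32.8, 29.7 and 31.0 CPM in the knockout-labelled libraries, against 65.7, 70.1 and 72.4 CPM in the wild-type libraries (log2 fold change -1.15 ± 0.09, adjusted p = 4.84e-06). It lies on chromosome 6, where the 60 other tested genes within 5 Mb had a median of -0.47. Trim28, the corepressor that zinc finger proteins bring to retroelements, had 177, 182 and 160 CPM in the knockout-labelled libraries and 221, 240 and 255 CPM in the wild-type libraries (-0.47 ± 0.10, adjusted p = 0.00203). The 50 other tested genes within 5 Mb of Trim28 had a median of 0.68. Trim33, which works with SMAD proteins in TGF-beta signalling, had 182, 146 and 160 CPM in the knockout-labelled libraries and 106, 111 and 110 CPM in the wild-type libraries (0.57 ± 0.10, adjusted p = 0.000705). Trim66, a testis-enriched relative that binds heterochromatin protein 1 and lacks a RING domain, was nearly silent in the wild type: it had counts of 104, 160 and 175 in the knockout-labelled libraries and of 9, 12 and 9 in the wild-type libraries, 15.0-fold higher (3.91 ± 0.33, adjusted p = 6.4e-06).

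Members with NHL repeats, several of which bind RNA, were higher for 3 of 4 and lower for 0, where 30.7% of all tested genes were higher and 30.2% lower. Trim32, mutated in a limb-girdle muscular dystrophy, had 57.0, 65.6 and 70.2 CPM in the knockout-labelled libraries and 36.4, 39.2 and 35.7 CPM in the wild-type libraries (log2 fold change 0.79 ± 0.11, adjusted p = 0.000122). Trim2, a neuronal ligase for neurofilament, had 55.4, 54.2 and 56.7 CPM in the knockout-labelled libraries and 41.5, 37.4 and 27.8 CPM in the wild-type libraries (0.64 ± 0.14, adjusted p = 0.00274). Trim3, its brain-expressed relative, had 48.4, 53.1 and 53.3 CPM in the knockout-labelled libraries and 42.9, 39.5 and 38.1 CPM in the wild-type libraries (0.36 ± 0.10, adjusted p = 0.0086). Scaled by library totals only, the call of Trim3 was lost (adjusted p = 0.0823). Trim71, a stem cell gene controlled by the let-7 miRNAs, did not pass, with 4.60 to 5.78 CPM in the knockout-labelled libraries and 3.31 to 4.10 CPM in the wild-type libraries (0.44 ± 0.20, adjusted p = 0.0739). It passed without wild-type replicate 3 (adjusted p = 0.0232).

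**Figure D5:**
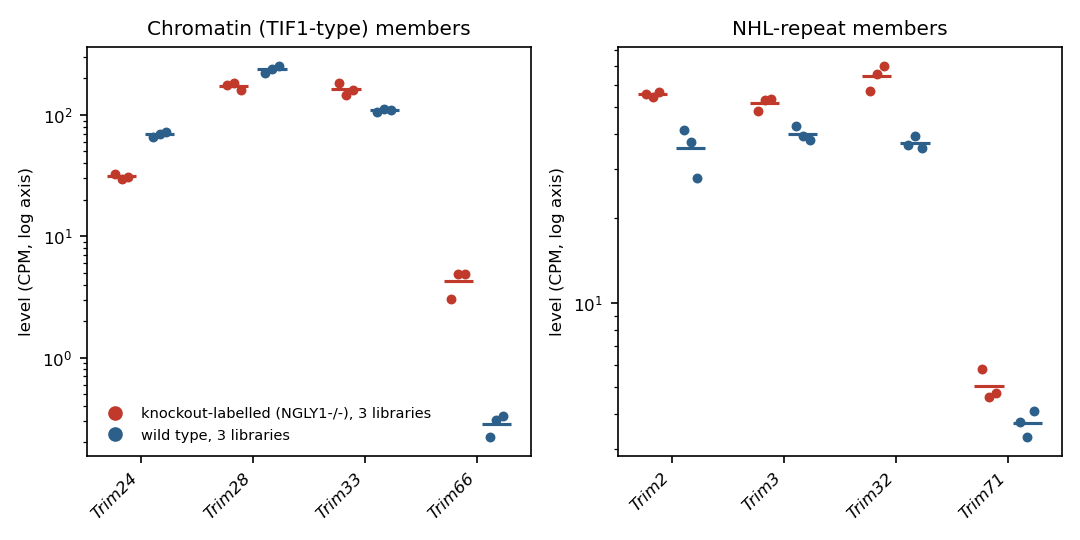
Level of the chromatin (left) and NHL-repeat (right) TRIM genes in each library, in CPM on a log axis; points are libraries and bars group means. Trim24 and Trim28 lie lower in the knockout-labelled libraries, and Trim66 lies 15.0-fold higher.

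Among the remaining members, Trim36 changed most in the upward direction. It encodes a microtubule-associated ligase of the acrosome and had counts of 111, 113 and 126 in the knockout-labelled libraries and of 9, 4 and 8 in the wild-type libraries, 16.9-fold higher (log2 fold change 4.08 ± 0.37, adjusted p = 9.18e-06). It lies on chromosome 18, where the 32 other tested genes within 5 Mb had a median of 0.49. Trim35, a ligase reported to restrain IRF7, was one of the most abundant members and had 330, 292 and 263 CPM in the knockout-labelled libraries and 123, 119 and 111 CPM in the wild-type libraries (1.32 ± 0.11, adjusted p = 4.31e-06). Trim27, which takes part in endosome trafficking, had 125, 110 and 109 CPM in the knockout-labelled libraries and 43.1, 47.1 and 51.7 CPM in the wild-type libraries (1.28 ± 0.10, adjusted p = 4.67e-06), and the 91 other tested genes within 5 Mb on chromosome 13 had a median of 0.44.

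In the other direction, Trim67, a neuronal gene of the microtubule-binding COS-box group, had counts of 0, 1 and 0 in the knockout-labelled libraries and of 12, 19 and 8 in the wild-type libraries. The wild-type level was 37.3 times that of the knockout-labelled libraries, with a 95% counting interval of 6.31 to 1509. The single count was in knockout-labelled replicate 2, without which the group had 0. Trim65, known in human cells to activate the RNA sensor MDA5, fell to 2.42, 3.11 and 2.62 CPM in the knockout-labelled libraries, against 6.22, 5.88 and 5.74 CPM in the wild-type libraries (log2 fold change -1.13 ± 0.19, adjusted p = 0.000572). The adjacent Trim47, which overlaps it on the same strand, rose (0.85 ± 0.13, adjusted p = 0.000246). Trim59, a membrane-anchored ligase, fell to 88.1, 84.8 and 87.0 CPM in the knockout-labelled libraries, against 121, 119 and 137 CPM in the wild-type libraries (-0.53 ± 0.09, adjusted p = 0.000573).

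The other members are named to account for all of them, after their values were seen. Of these, Trim23, Trim44 and Trim46 rose by 0.45, 0.52 and 0.38 on the log2 scale. The 55 other tested genes within 5 Mb of Trim23 had a median of 0.65, above the change of Trim23 itself. The calls of Trim23 and Trim46 were lost when scaled by library totals only (adjusted p = 0.0596 and 0.175), and that of Trim46 also without knockout-labelled replicate 2 or 3 or wild-type replicate 2. Krtcap2, on the opposite strand to Trim46, rose by 1.21. The 11 members outside the interferon-linked list that did not pass had log2 fold changes from -0.57 (Trim7) to 0.58 (Trim62). Besides Trim71 these also included Trim8, Trim11, Trim13, Trim16, Trim37, Trim39, Trim41 and Trim45. Trim37, a centrosomal ligase, stood at 136 to 139 CPM in the knockout-labelled libraries and 121 to 126 CPM in the wild-type libraries, so the groups did not overlap although the test was not passed. Trim13, at 2.48 to 3.14 CPM in the knockout-labelled libraries and 4.10 to 4.15 CPM in the wild-type libraries, was just outside the threshold (adjusted p = 0.0511).

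The 13 members with too few counts to be tested had 1 to 47 counts over the 6 libraries. They included the muscle ligases Trim54, Trim63 and Trim72, with 1, 1 and 7 counts over the knockout-labelled libraries and 0, 4 and 15 over the wild-type libraries. Trim29 had counts of 16, 14 and 7 in the knockout-labelled libraries and of 3, 4 and 3 in the wild-type libraries, and Trim40 had 0 in the knockout-labelled libraries and 4, 4 and 3 in the wild-type libraries. With 3 counts taken for the group at 0, the wild-type level of Trim40 was 3.50 times that floor. This ratio leaves out the counting error of the wild-type counts, so it is no lower bound. The remaining members of this kind, Trim9, Trim10, Trim17, Trim31, Trim43a and Trim58, had at most 8 counts over a group.

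Genes around the family were taken from lists that were likewise drawn up with earlier results known. Of the interferon signalling genes, 8 of 11 rose, 2 fell and 1 did not pass, so 90.9% were called, against 60.9% of all tested genes. Of the 11, 72.7% were higher and 18.2% lower, against 30.7% and 30.2% of all tested genes. The transcription factor genes Irf7 and Irf9 rose 77.4-fold and 10.8-fold. The kinase gene Tyk2 and the receptor gene Ifnar1, picked here because they were the 2 that moved down, fell by 0.73 and 0.30 on the log2 scale. The Ifnar1 call was lost without knockout-labelled replicate 2 or 3 or wild-type replicate 1 or 2 (adjusted p = 0.108, 0.0822, 0.0692 and 0.125). Of the TRIM genes known by other names, 1 of 3 tested rose and 0 fell, 33.3% called against 60.9% of all tested genes. Mid2, a midline microtubule ligase on chromosome X, was 3.67-fold higher. Pml, the nuclear body gene also counted as TRIM19, did not pass (log2 fold change 0.22, adjusted p = 0.119), nor did Mid1 (0.19, adjusted p = 0.327). Of 8 ubiquitin-conjugating enzymes that work with TRIM ligases, 4 rose and 0 fell, so 50% were called, against 60.9% of all tested genes. The count was 2 higher without knockout-labelled replicate 2 or 3 or wild-type replicate 1 or 2, and 2 higher and 1 lower with library totals only or a filter of at least 1 CPM in 3 libraries. Ube2w, which attaches the first ubiquitin to TRIM21, was 3.02-fold higher and Ube2d2a, on chromosome 18, 1.84-fold higher. The call of Ube2k (1.25-fold, adjusted p = 0.0345) was lost under several alternatives. Of 8 partners of Trim28 in gene silencing, 0 rose and 4 fell, 50% called against 60.9% of all tested genes, with the chromatin remodeller gene Chd3 4.21-fold lower, the deacetylase gene Hdac1 1.83-fold lower and the heterochromatin protein gene Cbx3 1.77-fold lower.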

How the data were processed

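The authors deposited raw counts, whole numbers per gene for 6 libraries of a stranded total RNA kit, keyed by NCBI Gene ID, per the file headers and the labels' protocols. The submitters' processing notes list STAR 2.5.1b and the build mm10. No source used here gives the counting program or its strand setting. Columns were matched to samples by title and number: columns headed mef_pk to samples titled PK MEF, and mef_wt to WT MEF. The genotype label of the PK MEF samples is NGLY1-/-.

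Genes were kept by filterByExpr and tested two-sided in edgeR 4.0.16 (R 4.3.3) (TMM scaling; quasi-likelihood test, robust, on genotype alone), adjusted by Benjamini-Hochberg over 15039 genes at 0.05. The biological coefficient of variation was 15.5%. CPM uses TMM-scaled library sizes. The step was tested on simulated data. Coordinates and promoters are RefSeq's for GRCm38.p6, the assembly of mm10, where 54 of 54 members were found, and transcript lengths and shared 50-base stretches come from GENCODE transcripts. Trim67 and Trim30c, each with a group of up to 3 counts, were given as count ratios with exact 95% intervals. The ratios of the untested Trim10, Trim17, Trim34b and Trim63 are left out. The lower limits of their intervals, higher over lower group, were 0.763, 0.762, 0.696 and 0.378. The intervals cover counting error only, and the floor of 3 covers only that of the group at 0. Depth was 27323577 to 37841558 counts per library.

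The members and lists were chosen with earlier results of these data known. Named genes were every interferon-linked member, other members called at least 2-fold with groups apart, tested TIF1 and NHL members, the 3 highest and 3 lowest levels, and up to 3 genes by p of each list around the family. A gene that this rule names in the interferon signalling list is not reported here. Alternatives were DESeq2 1.42.0 size factors, library totals only, other filters, limma-voom 3.58.1, the DESeq2 test, a block for the replicate number, each library left out in turn, a wider interferon-linked list and a longer motif. Leaving out both libraries numbered 3 was chosen after seeing the data.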

Additional observations from a re-analysis of the deposited data

How the results depend on the processing

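The counts of TRIM members called stayed within 1.5 times of those reported under every alternative run. With each library left out, 23 to 27 members were higher and 5 to 7 lower, 10 to 11 interferon-linked members were higher and 0 lower, and 12 to 16 other members were higher and 5 to 7 lower. Over all genes, 4212 to 5213 were higher and 3925 to 4990 lower. With library totals only, the median of all tested genes shifted by -0.12 on the log2 scale (-0.11 with no filter on low counts) and 3911 genes were higher against 5318 lower, with 21 and 6 TRIM members. With the wider list, 12 of its members were higher and 0 lower. Among 960 comparisons of a single gene with an alternative, 916 kept direction and call, 27 lost a call, 13 gained one and 4 reversed, all 4 in genes that did not pass. The reversed ones were Trim16 without knockout-labelled replicate 2 or wild-type replicate 3, with log2 fold changes of -0.229 to 0.174 over the libraries left out, and 0.17 without both libraries numbered 3, and Trim41 without knockout-labelled replicate 1, with -0.0333 to 0.0211. Of the lists around the family, the conjugating enzymes were 2 higher and 1 lower under library totals as under a filter of at least 1 CPM in 3 libraries, and 2 to 5 higher and 0 lower with each library left out. In those the TRIM genes of other names were 1 to 2 higher, and the interferon signalling genes 7 to 9 higher and 1 to 2 lower. The cause of these differences was not tested.

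Whether libraries sharing a replicate number were paired could not be settled from the data. The correlation of their deviations from the group means was 0.10, 0.01 and 0.21, the last being the highest of all pairs. For libraries of different numbers it was -0.18 to 0.15. Replicates 1 and 2 of the knockout-labelled group correlated more with wild-type replicates 2 and 1 (0.15 and 0.04) than with those of their own number. With the replicate number as a block, 24 members were higher and 5 lower, and 4690 and 4563 of all genes. Depth limits the 13 untested members and Trim5, Trim62, Trim67 and Trim69, which stood near or below 1 CPM.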
